A study of Mus musculus with 2 samples.

Results

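The genes described here build the carbohydrate ligands by which T cells bind selectins, as transcribed in endogenous CD8+ T (en-T) cells of melanoma-bearing mice. They are 10 genes of 19505 with a named probe set, chosen by gene symbol with earlier results of these same arrays known, and Fut7 and Gcnt1 were already among the genes that the study had picked from these arrays for being higher after anti-CD4 treatment. Each gene had 1 probe set, and all 10 were measured. Endogenous cells are those of the recipient mouse itself, not the transferred ones.

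The mice treated with anti-CD4 (CTXpre/CD4post) and the control mice (CTXpre) were C57BL/6 females of 6 to 8 weeks at the start, inoculated in the skin with 200000 B16F10 melanoma cells. Both groups shared 300 mg/kg cyclophosphamide on day 3 after that inoculation, 2000000 Thy1.1+ Pmel-1 CD8+ T cells on day 5, which carry a transgenic receptor for a melanoma antigen and had been primed ex vivo, and 10000 IU of IL-2 daily for 3 days. The CTXpre/CD4post mice were in addition given 200 µg of the anti-CD4 antibody GK1.5 on days 10, 17 and 24, whereas the CTXpre mice were not. CD8+ Thy1.1- cells were sorted on day 25 from spleen and inguinal lymph nodes, pooled from 5 mice and run on 1 Clariom S array per group. With n = 1 pool per group, mouse-to-mouse spread was not measured, no test was possible, and every difference below describes this pair of arrays only.

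Levels are log2 values after robust multi-array averaging (RMA), a normalization that gives both arrays nearly the same distribution, and all differences are CTXpre/CD4post minus CTXpre. A probe set counted as above background when it exceeded the 95th percentile of a control set, the 1452 probe sets for receptors of smell, pheromones and taste, which lay at 4.36 in CTXpre/CD4post and 4.35 in CTXpre. The number of arrays limits the precision. Either array or both put 12862 genes above background, called detected genes below, and their median difference was 0.01 and 95% of differences lay between -0.66 and 0.63. Levels of different probe sets are not comparable as RNA amounts, so each gene is compared with itself, except where genes are named for having similar readings.

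Selectins are lectins that slow flowing leukocytes by binding sialyl Lewis x, a small sugar group made of galactose, N-acetylglucosamine, sialic acid and fucose. On T cells the main carrier of this group is PSGL-1. A core 2 branch is first started on its O-linked glycans, galactose and sialic acid are then added, fucose is attached last, and tyrosines near the protein's tip are sulfated for binding to P-selectin. Naive T cells carry little of the finished structure, and activated effector T cells can switch on the branching and fucosylation steps.

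The proximal promoters of Fut7 and Gcnt1 are shown because these were the members past 2-fold by measured levels. They were picked for those known differences, and shared regulation was not tested. Each line gives 250 bases upstream of an annotated transcription start, from RefSeq (GRCm38.p6), read 5′ to 3′ on the gene's strand, and capitals mark matches to the motifs named below. The Fut7 window is chr2:25422992-25423241 on the plus strand and the Gcnt1 window is chr19:17372845-17373094 on the minus strand.
Fut7: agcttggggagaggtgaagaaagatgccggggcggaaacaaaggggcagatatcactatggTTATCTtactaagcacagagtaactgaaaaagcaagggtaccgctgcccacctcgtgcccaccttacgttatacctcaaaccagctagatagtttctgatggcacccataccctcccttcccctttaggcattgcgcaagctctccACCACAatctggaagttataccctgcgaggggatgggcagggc
Gcnt1: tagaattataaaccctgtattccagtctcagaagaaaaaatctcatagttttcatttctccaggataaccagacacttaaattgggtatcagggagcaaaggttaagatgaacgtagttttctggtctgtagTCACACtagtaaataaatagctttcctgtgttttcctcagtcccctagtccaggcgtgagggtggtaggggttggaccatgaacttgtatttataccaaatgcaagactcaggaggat

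A total of 5 motifs was searched on both strands. The half-site of T-box factors, the family of T-bet, was searched as GTGTGA. The site of RUNX factors, which set the CD8+ lineage with other regulators, was searched as TGTGGT. The site of AP-1, a factor of T-cell activation, was searched as TGANTCA. The site of GATA factors, which include the type 2 regulator GATA3, was searched as AGATAA. The STAT palindrome, bound by factors downstream of cytokine receptors, was searched as TTCNNNGAA. No matches overlapped in the windows shown. In the Fut7 window the capitals mark a GATA match at bases 184 to 189 before the start and a RUNX match at bases 38 to 43 before it, both on the opposite strand. In the Gcnt1 window they mark a T-box match at bases 113 to 118 before the start, on the opposite strand. The windows of Fut7 and Gcnt1 shown here had no motif in common. The other Fut7 start and the other Gcnt1 starts of the table had no match. Of all 32851 promoter windows of this length, 12.3% held the T-box half-site, 14% the RUNX site, 6.75% the AP-1 site, 9.99% the GATA site and 7.02% the STAT palindrome. Among 15 windows of the 8 members listed in the table, the T-box half-site was found in 1, the RUNX site in 3, the GATA site in 2, the STAT palindrome in 1 and the AP-1 site in 0. Letters of this kind occur often, and a match is a description and not a site of binding. St3gal1 and Selplg have no window here.

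In the CTXpre/CD4post library, transcripts of the enzymes that start the core 2 branch and attach the terminal fucose were higher. Transcripts of the carrier protein and of the enzymes of the steps between differed little. Fut7 was 3.43-fold and Gcnt1 at least 2.64-fold higher. In pooled sorted cells, more cells carrying a transcript and more RNA per cell cannot be told apart. The other 8 members had differences from -0.78 to 0.44, with a median of 0.15. By measured levels, 2 of 10 members passed 2-fold upward and 0 passed it downward. A 2-fold higher level was reached by 0.552% of all detected genes and a 2-fold lower level by 0.536%. Since the members were chosen with these differences known, nothing is read from that comparison. The median over all 10 members was 0.23, with 8 differences above 0 and 2 below. Among the 8 is Fut4, which was above background on neither array. Of all detected genes, 51.6% had a difference above 0, and nothing is read from this count either.

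**Figure D1:**
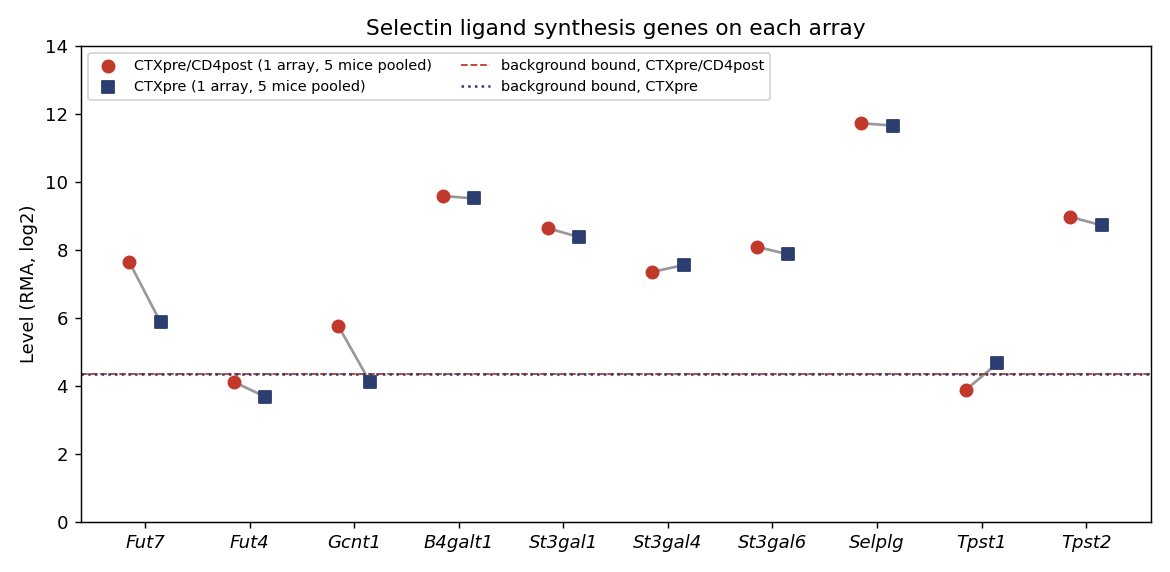
Level of each selectin ligand synthesis gene (RMA, log2, vertical axis) on the CTXpre/CD4post array (circles) and the CTXpre array (squares), 1 pool of 5 mice each, with the background bound of each array as a dashed or dotted line. Fut7 and Gcnt1 have the steepest connecting lines, with 7.64 and 5.75 in CTXpre/CD4post against 5.86 and 4.12 in CTXpre, and Fut4 lies below the bound on both arrays.

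Of the fucosyltransferase pair, Fut7 was above background and Fut4 was not. Fut7 encodes the alpha-1,3-fucosyltransferase that completes sialyl Lewis x in leukocytes. Its level was 7.64 in CTXpre/CD4post and 5.86 in CTXpre, a difference of 1.78, and it was above background on both arrays. By measured levels this was the 9th highest difference among the 12862 detected genes. Fut4, a related enzyme that fucosylates similar chains in myeloid cells and, less efficiently, the selectin ligands of T cells, had a level of 4.11 in CTXpre/CD4post and 3.68 in CTXpre. Neither level of Fut4 was above background, so no fold is given.

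Gcnt1 encodes the core 2 N-acetylglucosaminyltransferase that begins the branch on which sialyl Lewis x is built. Its level was 5.75 in CTXpre/CD4post and 4.12 in CTXpre. The CTXpre level was not above background, so the difference of 1.63 has only a bound as a fold, at least 2.64-fold higher. Adding 32 on the linear scale, a step that damps the differences of dim probe sets, gave 1.74-fold for Gcnt1 and 2.57-fold for Fut7. With the 99th percentile of the receptor probe sets as background (5.13 in CTXpre/CD4post and 5.25 in CTXpre), Gcnt1 was at least 1.41-fold higher, so its place past 2-fold depends on how dim levels are treated.

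The genes of the enzymes that extend and cap the branch were above background on both arrays and differed by less than 1.5-fold. B4galt1, which adds galactose to N-acetylglucosamine, had a level of 9.58 in CTXpre/CD4post and 9.51 in CTXpre. St3gal6, a sialyltransferase that caps such galactose in selectin ligands, had 8.09 in CTXpre/CD4post and 7.87 in CTXpre. St3gal4, which does the same and acts beside St3gal6 in mouse leukocytes, had 7.35 in CTXpre/CD4post and 7.55 in CTXpre. The St3gal4 and St3gal6 differences, -0.20 and 0.22, had opposite signs and nearly equal size. St3gal1 sialylates the unbranched core 1 structure, which closes it to the Gcnt1 enzyme, and had a level of 8.64 in CTXpre/CD4post and 8.38 in CTXpre. Its difference of 0.26 had the same sign as that of Gcnt1 and was within the range that held 95% of genes.

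The genes of the carrier and of its sulfation showed no difference past 1.5-fold that was measured above background on both arrays. Selplg, which encodes PSGL-1, had a level of 11.72 in CTXpre/CD4post and 11.66 in CTXpre, so the difference was 0.07. Tpst2, a Golgi enzyme that sulfates tyrosines, had 8.97 in CTXpre/CD4post and 8.72 in CTXpre. Tpst1, its close relative, had 3.88 in CTXpre/CD4post, not above background, and 4.66 in CTXpre. The measured Tpst1 difference was -0.78, and as a bound it was at least 1.23-fold lower. By measured levels Tpst1 was the single member at least 1.5-fold lower, a size that 3.37% of detected genes reached in that direction and 3.08% in the other.

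**Figure D2:**
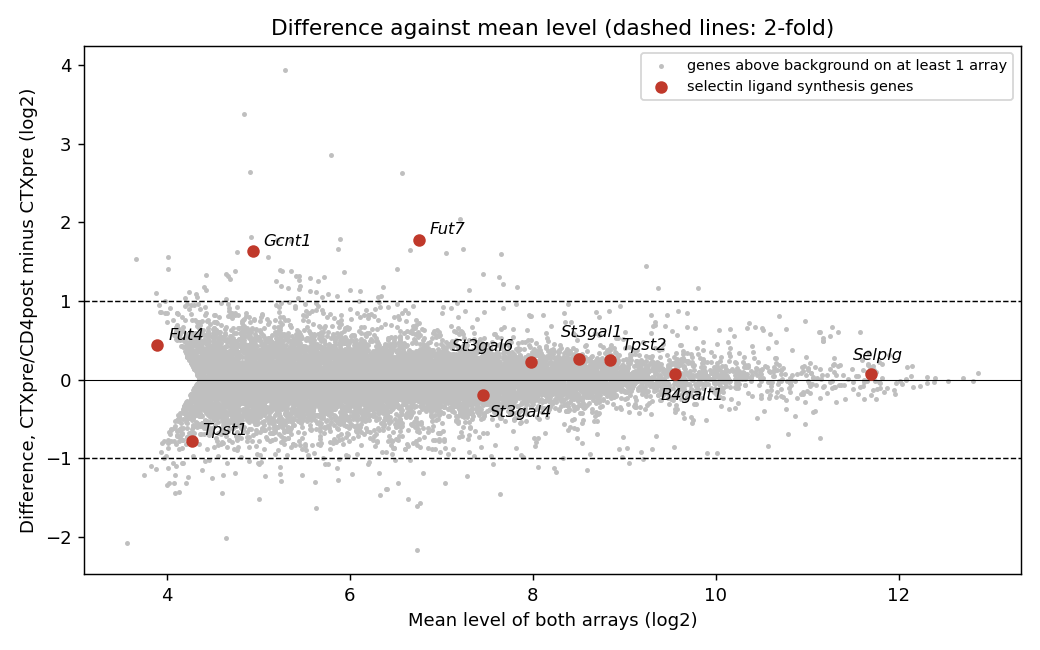
Difference between the arrays (CTXpre/CD4post minus CTXpre, log2, vertical axis) against the mean level of both (log2, horizontal axis) for the 12862 detected genes (grey) and the 10 selectin ligand synthesis genes (red, Fut4 among them although it was above background on neither). Fut7 and Gcnt1 lie above the 2-fold line. Besides Fut7, 6 members had both levels above background, and these 6 lie between -0.20 and 0.26.

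A further 8 lists held 81 genes for fucose and sialic acid transfer, O-glycan cores, donor sugars, sialidases and sulfation, of which 75 had a probe set and 58 were detected. By measured levels, 1 of these, Chst2, passed 1.5-fold upward and 3 passed it downward. These are 1.72% and 5.17% of the 58, beside 3.08% and 3.37% of all detected genes, and nothing is read from counts this small.

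Of 8 other fucosyltransferases, 6 were detected and all 6 stayed within 1.5-fold, with a median difference of -0.03 over the 8. Fut8, which adds core fucose to N-glycans, had 6.42 in CTXpre/CD4post and 6.84 in CTXpre. Pofut2, which fucosylates thrombospondin repeats, had 6.95 in CTXpre/CD4post and 6.65 in CTXpre, and Fut11 had 6.28 in CTXpre/CD4post and 6.27 in CTXpre. All 6 genes of GDP-fucose supply, the donor that Fut7 uses, were above background, stayed within 1.5-fold and had a median of -0.01. Among them Slc35c1, the Golgi transporter of GDP-fucose, had 7.18 in CTXpre/CD4post and 6.99 in CTXpre, and Slc35c2, a related transporter gene, had 7.21 in CTXpre/CD4post and 7.32 in CTXpre.

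Of 18 other enzymes of O-glycan cores and N-acetyllactosamine chains, 13 were above background and none of those reached 1.5-fold, with a median of -0.02 over the 18. Gcnt3 and Gcnt4, the other core 2 enzymes, were above background on neither array. Gcnt2, which branches N-acetyllactosamine chains, had 5.01 in CTXpre/CD4post and 5.27 in CTXpre. B3gnt2, which lengthens N-acetyllactosamine chains, had 8.58 in CTXpre/CD4post and 8.24 in CTXpre, and the galactosyltransferase B4galt5 had 8.00 in CTXpre/CD4post and 7.72 in CTXpre. C1galt1, whose enzyme makes the core 1 structure that Gcnt1 branches, had 7.10 in CTXpre/CD4post and 6.81 in CTXpre. The 10 listed transferases that start O-glycans had a median of -0.08, and the 9 above background stayed within 1.5-fold, among them Galnt10 with 8.84 in CTXpre/CD4post and 8.95 in CTXpre and Galnt6 with 7.76 in CTXpre/CD4post and 7.81 in CTXpre.

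Of 17 other sialyltransferases, 14 had a probe set and 8 were above background, none past 1.5-fold. The median over the 14 was -0.02. St6gal1, which places sialic acid in alpha-2,6 linkage on the same kind of galactose, had 8.66 in CTXpre/CD4post and 8.28 in CTXpre, and St8sia1, a ganglioside sialyltransferase, had 8.12 in CTXpre/CD4post and 8.26 in CTXpre. St3gal2, a relative of St3gal1, came close to 1.5-fold with 5.57 in CTXpre/CD4post and 4.99 in CTXpre. In the supply of sialic acid and galactose donors, 7 of 9 genes were measured, with a median of -0.21. Slc35a2, the Golgi transporter of UDP-galactose, was 1.55-fold lower, with 5.26 in CTXpre/CD4post and 5.90 in CTXpre. Sialidases, which remove sialic acid, had a median of 0.00 over 4 genes, and Neu1 had 7.05 in CTXpre/CD4post and 6.97 in CTXpre, while Neu3 had 6.59 in CTXpre/CD4post and 6.67 in CTXpre.

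Within the 8 further lists of enzymes and donor supply, the 1 gene at least 2-fold higher was one of carbohydrate sulfation. Chst2 encodes a sulfotransferase that adds sulfate to N-acetylglucosamine in glycans. Its level was 6.57 in CTXpre/CD4post and 5.43 in CTXpre, which is 2.20-fold higher. Chst3, a chondroitin sulfotransferase, was 1.61-fold lower, with 5.01 in CTXpre/CD4post and 5.70 in CTXpre. Papss2, a synthase of the sulfate donor, had 3.64 in CTXpre/CD4post, not above background, and 4.70 in CTXpre, at least 1.27-fold lower. Papss1, the other synthase of that donor, had 6.79 in CTXpre/CD4post and 6.73 in CTXpre. Of the 8 measured genes in this list the median was -0.01.

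Other proteins that can carry selectin ligands went both ways, with a median of 0.08 over 10 genes. CD44 and CD43 can carry E-selectin ligands on activated T cells. Cd44 had a level of 9.21 in CTXpre/CD4post and 8.81 in CTXpre, and Spn, which encodes CD43, had 8.16 in CTXpre/CD4post and 7.86 in CTXpre. Past 1.5-fold by measured levels were Madcam1 and Cd24a. Madcam1, an adhesion molecule of mucosal vessels, had 4.85 in CTXpre/CD4post. It was not above background in CTXpre, and its bound of at least 1.41-fold higher is short of 1.5-fold. Cd24a, a mucin-like surface protein of B cells and other leukocytes, had 5.87 in CTXpre/CD4post against 6.64 in CTXpre. The selectin genes Sele and Selp, which belong to vessel wall and platelets, were above background on neither array.

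**Figure D3:**
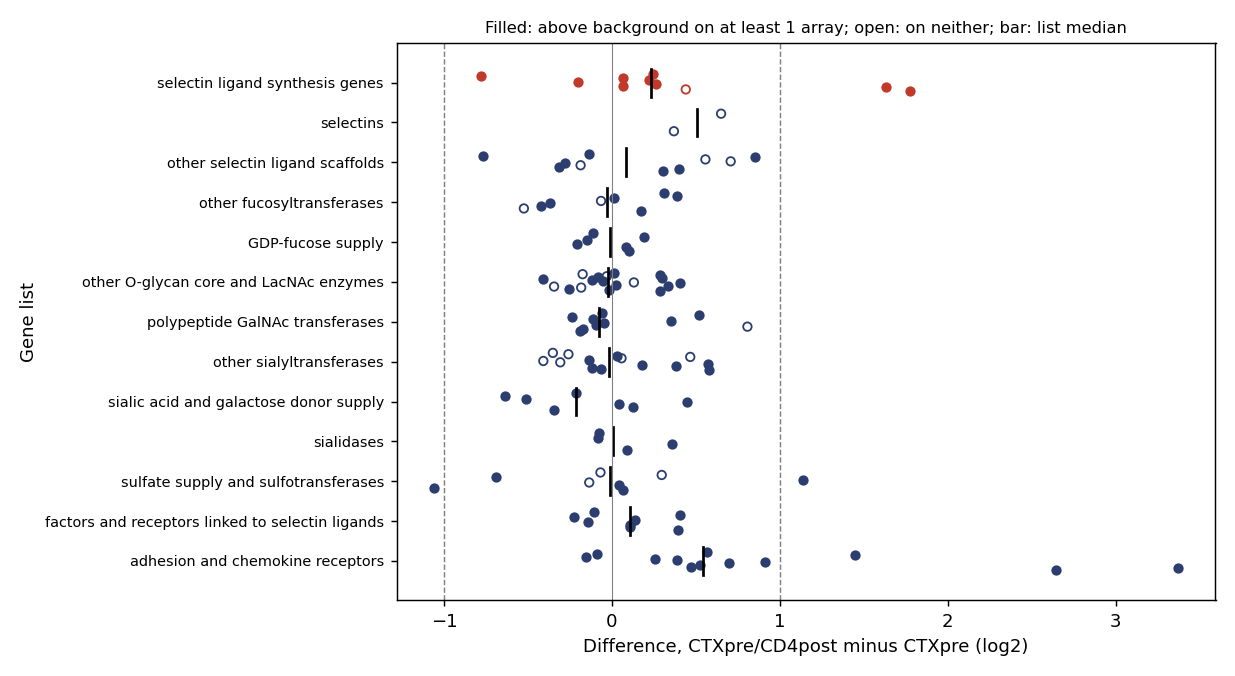
Difference between the arrays (CTXpre/CD4post minus CTXpre, log2, horizontal axis) for every measured gene of the selectin ligand synthesis genes (top row, red) and of 12 related lists (blue), 1 point per gene, filled where above background on at least 1 array, with the list median as a bar. Over all measured genes, detected or not, the medians of the lists of enzymes and donor supply lie between -0.21 and 0.00, and over detected genes alone that of other sialyltransferases is 0.11 and that of other fucosyltransferases 0.09. The members were chosen with their differences known.

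T-bet and STAT4 act downstream of IL-12 and have been linked to selectin ligand synthesis in T cells. None of the 8 measured genes in the list of such factors and receptors reached 1.5-fold, and its median difference was 0.11. Runx3 had a level of 9.99 in CTXpre/CD4post and 9.59 in CTXpre, and Klf2, a factor of resting T cells, had 9.03 in CTXpre/CD4post and 9.14 in CTXpre. Tbx21, which encodes T-bet, had 7.03 in CTXpre/CD4post and 6.63 in CTXpre, and Stat4 had 8.72 in CTXpre/CD4post and 8.62 in CTXpre.

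Adhesion and chemokine receptors, which act after selectins have slowed a cell, included genes with differences as large as those of Fut7 and Gcnt1. Of 12 measured, 5 were at least 1.5-fold higher and 0 lower, and the median was 0.54. Of all detected genes, 3.08% were that much higher and 3.37% lower, but this list was drawn up with these differences known. Ccr8 and Ccr4, receptors found on skin-homing and type 2 T cells, had bounds of at least 4.54-fold and 3.68-fold higher. The integrin chain Itgb1 was 2.72-fold higher, and the receptors Cxcr6 and Cxcr3 1.88-fold and 1.62-fold higher. Ccr4 and Ccr8 were likewise picked by the study on these arrays. Ccr10, another skin-homing receptor, was at least 1.12-fold higher, with 4.51 in CTXpre/CD4post and 4.04 in CTXpre.

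The genes whose pair of levels lay nearest to that of Fut7 over the 2 arrays, by Euclidean distance, were Ifng, Slc25a24 and Capg, at 0.16, 0.43 and 0.44. Ifng, the gene of interferon gamma, differed by 1.65 and Capg by 1.61. Nearest to Gcnt1 were Cd40lg, Ptgfrn and Prss16, at 0.13, 0.24 and 0.25, and Cd40lg, the ligand of CD40, differed by 1.81. With 2 arrays such likeness reflects only a similar brightness and a similar difference.

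The sorted cells carried T-cell markers at high levels on both arrays. Cd8a had 11.72 in CTXpre/CD4post and 11.47 in CTXpre, Cd3e had 11.62 on either array, and all 9 measured T-cell markers differed by less than 1.5-fold. Markers of other cells were present too, most of them with a difference below 0. Over 12 marker lists, T cells included, 73 genes were detected. By measured levels, 0 of these passed 1.5-fold upward and 34, or 46.6%, passed it downward. Of all detected genes, 3.08% passed it upward and 3.37% downward. The summed linear level was 955 in CTXpre/CD4post and 1861 in CTXpre for 7 plasmacytoid dendritic-cell markers, 569 in CTXpre/CD4post and 945 in CTXpre for 8 of conventional dendritic cells. It was 683 in CTXpre/CD4post and 1132 in CTXpre for 8 neutrophil markers, and 399 in CTXpre/CD4post and 684 in CTXpre for 6 of monocytes and macrophages. A difference below 0 was found for 7 of 7, 8 of 8, 7 of 8 and 4 of 6 markers of these lists. For 6 MHC class II genes, all lower, the sum was 4809 in CTXpre/CD4post and 8250 in CTXpre. Among markers of helper and regulatory T cells 4 of 6 differences were above 0, and the sum was 440.2 in CTXpre/CD4post and 519 in CTXpre. Foxp3, also listed, was not measured, and Il2ra, among those above 0, was above background on neither array. In that list Cd4 had a level of 5.98 in CTXpre/CD4post and 7.55 in CTXpre, and Ctla4 had 7.05 in CTXpre/CD4post and 6.54 in CTXpre. For 8 B-cell markers, all lower, the sum was 853 in CTXpre/CD4post and 1103 in CTXpre. Differences below 0 were found for 5 of 7 plasma-cell markers, 4 of 6 natural killer, 3 of 4 erythroid and 4 of 4 endothelial markers. The sum was 399 in CTXpre/CD4post and 614 in CTXpre for plasma cells, and 627 in CTXpre/CD4post and 781 in CTXpre for natural killer cells. Eomes, the brightest gene of the natural killer list, had 8.79 in CTXpre/CD4post and 8.80 in CTXpre. It weighed most in that sum, whereas Tyrobp of the same list had 5.98 in CTXpre/CD4post and 7.01 in CTXpre. Jchain, the joining chain of antibodies, had the lowest plasma-cell difference, with 5.65 in CTXpre/CD4post and 7.82 in CTXpre. Siglech, Clec9a, S100a8 and Lyz2, defining markers of dendritic and myeloid cells, were above background on both arrays. Fut7 and Gcnt1 were higher, and Tpst1, Papss2, Chst3 and Cd24a lower, in the library where the dendritic-cell, myeloid and B-cell sums were lower. Their part in those differences was not tested.

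**Figure D4:**
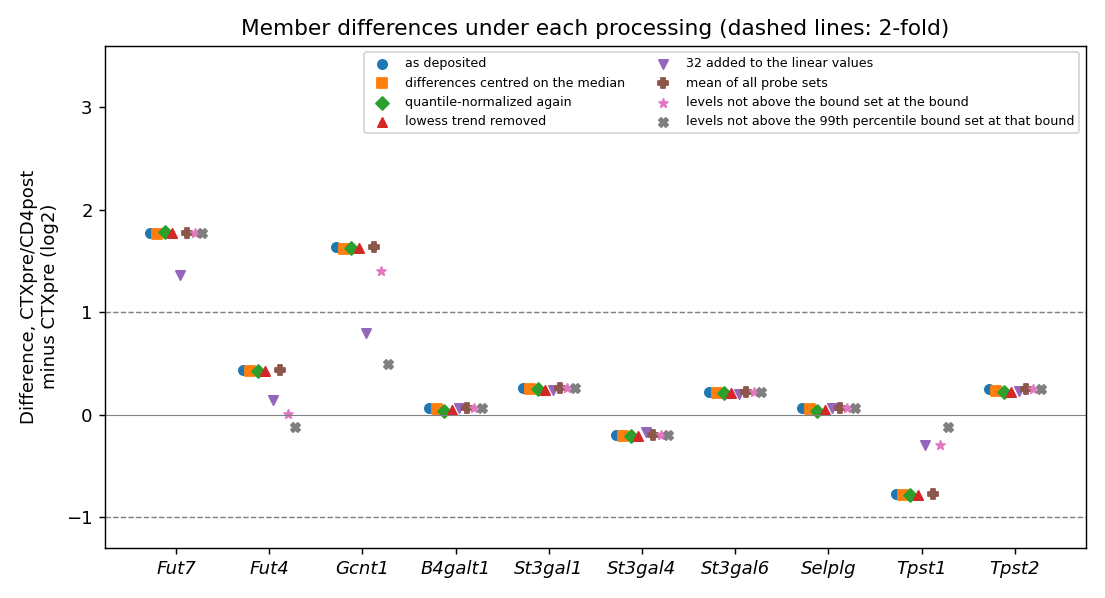
Difference between the arrays (CTXpre/CD4post minus CTXpre, log2, vertical axis) for each selectin ligand synthesis gene under the deposited values and 7 other ways of processing them (symbols). Fut7 stays between 1.36 and 1.78 and Gcnt1 between 0.50 and 1.63, while the 6 members measured above background on both arrays besides Fut7 stay close to their deposited values.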

How the data were processed

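RNA of endogenous CD8+ T cells was hybridised to 2 Clariom S mouse arrays (Affymetrix), 1 per group, and groups follow the treatment labels. The deposited file holds log2 levels from RMA, run by the authors in Affymetrix Power Tools. Its version and a genome build are not given in the sources read. RMA subtracts background, quantile-normalizes and summarizes probes, so a global shift in RNA cannot be seen and depth does not apply. Levels ran from 1.51 to 12.9 in CTXpre/CD4post and from 1.49 to 12.8 in CTXpre. There were 0 unused value columns.

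Of 22206 probe sets, 19572 carried 1 symbol in the platform annotation and 2634 are unnamed here. The probe set with the highest mean of both arrays stood for a gene. Where a probe set passed the background bound on a single array, the fold was taken from the bright level to the bound, or to the dim level if that was higher, and is written "at least N-fold". Detected genes passed the bound on 1 array or both. Genes were called by size, at 2-fold and 1.5-fold. No p-value was computed. Members, lists and thresholds were chosen with earlier results of these data known. Named genes were the members, listed genes past 1.5-fold (or else the 2 brightest), leading markers, and the 3 genes nearest to Fut7 and to Gcnt1; others, namely Fut11, Gcnt2, Gcnt3, Gcnt4, C1galt1, St3gal2, Papss1, Cd44, Spn, Tbx21, Stat4, Ccr10 and Cd8a, were named for their role after their values were seen. Promoters came from a RefSeq table (GRCm38.p6); protein sequences were not used here. Python 3.11.15 with statsmodels 0.14.6 was used. On simulated data, the median of differences added to probe sets well above background was recovered. Dim probe sets, the background bound and the "at least N-fold" rule were not tested there. Alternatives were median centring, repeated quantile normalization, a lowess trend removed (fraction 0.3), 32 added to linear values, other thresholds and bounds, and probe-set means.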

Additional observations from a re-analysis of the deposited data

How the results depend on the processing

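Of the 10 members, 9 kept the sign of their difference under 7 alternatives each. The exception was Fut4, whose difference was -0.13 with levels not above the 99th percentile bound set at that bound. Tpst1 also had -0.13 there, and for both genes this is only the difference between the bounds of the arrays. Several alternatives could not change a sign. Adding 32 to both linear values keeps their order, and the probe-set mean is the deposited value where a gene has 1 probe set. Setting dim levels at a bound leaves genes above both bounds unchanged. Nothing is therefore read from the count of kept signs. The count of members past 2-fold was 2 as deposited and 1, Fut7, with 32 added to the linear values; by measured levels it was 3 at 1.5-fold and 2 at 3-fold, one of them Gcnt1, whose bound is at least 2.64-fold. The median over the members lay between 0.15 and 0.23. Calls in the related lists also depended on dim levels. With 32 added to the linear values, the count past 1.5-fold fell from 2 to 0 for other selectin ligand scaffolds. It fell from 1 to 0 for sialic acid and galactose donor supply, and from 3 to 1 for sulfation. The count for adhesion and chemokine receptors stayed at 5. With 1 array per group, leaving out an array leaves no comparison. No paired analysis was possible because each group has 1 array.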
